A study of Mus musculus with 9 samples.

Results

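The vacuolar proton pump (V-ATPase) was followed through 10 of its genes, chosen by name as core or accessory subunits of the complex that acidifies lysosomes, out of 36528 gene numbers listed in the files. All 10 were found. The libraries came from Cd11b+ myeloid cells sorted from mouse brain, Cd11b being a surface integrin of microglia and related cells. Transgenic Tau-P301L mice gave 5 libraries, 2 female and 3 male, and their non-transgenic wild-type littermates gave 4, 2 female and 2 male, all at 11 to 12 months of age. Tau-P301L is a mutant form of tau known from inherited frontotemporal dementia, and neither the promoter of the transgene nor the strain is named in the sources used here. Whether every library is from its own mouse is not stated, and p-values then reflect the spread between these samples alone, which may be technical. Libraries are named by group and by a number given in sample order.

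The V-ATPase is a rotary motor. Its V1 part, in the cytosol, splits ATP and turns a central shaft, and its V0 part, in the membrane, carries protons into the lysosome as a ring of small proteolipids turns against the a subunit. Reversible separation of V1 from V0 is a known way of controlling the pump, and the acid it makes is needed by the hydrolases with which microglia digest what they take up. The transcription factor TFEB and its relatives are known to bind a short palindrome, the CLEAR element, near the start of many lysosomal genes.

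Reads counted in genes numbered 1494727 to 3793606 a library, with Tau-P301L library 5 the shallowest, and 3 reads in a library corresponded to 0.831 to 2.09 CPM (CPM being read counts scaled to library size with TMM factors). Tau-P301L libraries 3 and 5 stood apart, each correlating less with the rest (mean 0.844 and 0.835) than any other library did (0.864 to 0.896). Mitochondrial genes took 10.2% to 23.1% of reads across Tau-P301L libraries, with library 3 the highest, and 9.3% to 20% across wild-type libraries. Microglial markers were abundant in both groups: the 12 listed genes summed to 11200 to 18800 CPM across Tau-P301L and 13700 to 18200 CPM across wild-type libraries, led by Cx3cr1 and Itgam. Markers of other cells were lower, and no marker list separated the groups. All 12 neuronal genes had reads, with sums of 135 to 327 CPM across Tau-P301L and 181 to 370 CPM across wild-type libraries. The 8 neutrophil genes stood at 278 CPM in Tau-P301L library 4 and 79.6 CPM in wild-type library 3, and at 0.318 to 20.2 CPM elsewhere. In such bulk libraries fewer cells of a type and less RNA per cell cannot be told apart.

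Of the 10 subunits 9 had enough reads to be tested, and none passed the test of Tau-P301L against wild-type after adjustment over all 12250 genes (edgeR's quasi-likelihood test with sex in the model). DESeq2 and limma-voom also called 0 of the subunits, and over all genes they called 27 and 1. At an unadjusted p under 0.05 edgeR counted 1 of the 9, the V1 subunit gene Atp6v1c1, with a higher estimate in Tau-P301L, and 6.35% of all tested genes reached that level. Over all genes 0.00816% passed the adjusted threshold in edgeR, and that was the single gene Rfk. Of the 9 subunits 3 had higher and 6 had lower estimates, and the median log2 fold change of Tau-P301L over wild-type was -0.04, against -7e-04 over all tested genes. Subunits of the same complex thus had estimates of either sign, from -0.79 for Atp6v0d1 to 0.66 for Atp6v1c1.

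**Figure D1:**
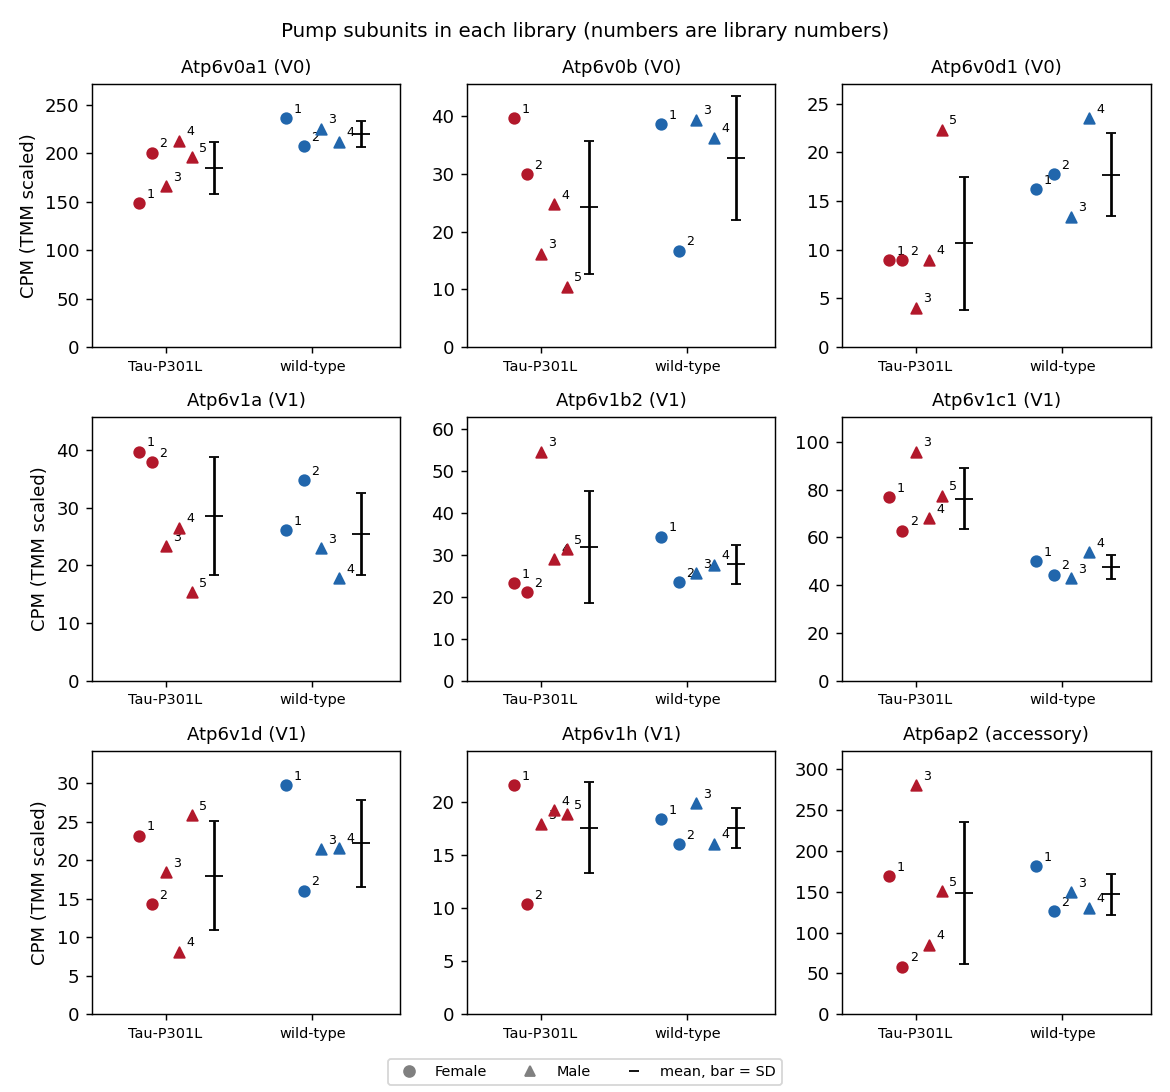
CPM of 9 pump subunits in each Tau-P301L (n = 5) and wild-type library (n = 4), with circles for females, triangles for males, and the mean with its SD beside each group. The groups are fully apart for Atp6v1c1, with Tau-P301L above, and for the other 8 subunits the groups overlap.

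Among the tested V0 subunits the most abundant, in CPM and on average per length, was Atp6v0a1 (chr11:101009422-101063719, GRCm38.p6). It encodes an a subunit, the membrane protein that holds the paths by which protons reach and leave the ring. It stood at 148, 201, 166, 213 and 196 CPM in Tau-P301L libraries 1 to 5 and at 237, 207, 226 and 212 CPM in wild-type libraries 1 to 4. Tau-P301L library 4 lay among the wild-type libraries and the other 4 Tau-P301L libraries lay below all of them. The means were 185 ± 26.7 CPM over 5 Tau-P301L libraries and 220 ± 13.3 CPM over 4 wild-type ones (mean ± SD), a log2 fold change of -0.26 (SE 0.22, 95% interval -0.71 to 0.19, edgeR adjusted p = 0.849). It had the smallest spread of the 9 subunits, with a coefficient of variation of 13.9% over all libraries.

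Atp6v0b (chr4:117884330-117887333) encodes a proteolipid of the rotating ring. It stood at 39.7, 29.99, 16.1, 24.8 and 10.5 CPM in Tau-P301L libraries 1 to 5 and at 38.6, 16.7, 39.4 and 36.3 CPM in wild-type libraries 1 to 4. Both groups spanned more than 20 CPM, and Tau-P301L library 5 was the lowest of all. The estimate on the log2 scale was -0.47 (SE 0.40, edgeR adjusted p = 0.854). It was -0.78 without wild-type library 2, -0.31 without wild-type library 3, -0.27 without Tau-P301L library 5 and -0.027 without Tau-P301L libraries 3 and 5. An annotated gene, Gm12841, overlaps 11.8% of its exon bases, and reads there could belong to either, since no source says that strand was used in counting.

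Atp6v0d1 (chr8:105524461-105566064) encodes the d subunit, which seats the central shaft on the ring. It had the lowest estimate among the members, with 8.89, 8.93, 4.04, 8.98 and 22.3 CPM in Tau-P301L libraries 1 to 5 and 16.2, 17.7, 13.4 and 23.5 CPM in wild-type libraries 1 to 4. Tau-P301L library 5 lay among the wild-type libraries and the other 4 Tau-P301L libraries lay below all of them. The estimate on the log2 scale was -0.79 (SE 0.48, 95% interval -1.79 to 0.20, edgeR adjusted p = 0.789), and -1.21 without Tau-P301L library 5. These levels rest on 9 to 32 reads in Tau-P301L and 35 to 85 reads in wild-type libraries.

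Atp6v0c (chr17:24163865-24169678) encodes the main proteolipid of the ring, of which each pump carries many copies. It had 0, 1, 0, 0 and 0 reads in Tau-P301L libraries 1 to 5 and 0 reads in each wild-type library, so it was not tested, and no fold is given. At these depths 3 reads would correspond to 0.172 to 0.451 on the authors' scale of RPKM, in which reads are divided by library size and gene length, against 2.40 to 8.82 RPKM for Atp6v0b in Tau-P301L and 3.75 to 8.94 RPKM in wild-type libraries. The processed pseudogene Atp6v0c-ps2, on chromosome 6, matches the coding sequence at 464 of 465 bases (99.8%), and it had 8, 2, 3, 1 and 3 reads in Tau-P301L and 8, 6, 31 and 5 reads in wild-type libraries. Below are 90 bases of each around the base at which they differ, which is in capitals, at position 111 of the Atp6v0c coding sequence, in a coding exon. They are shown because the deposited counts keep only reads that align to 1 place.
Atp6v0c: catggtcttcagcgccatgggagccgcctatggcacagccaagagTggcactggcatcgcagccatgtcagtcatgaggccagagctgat
Atp6v0c-ps2: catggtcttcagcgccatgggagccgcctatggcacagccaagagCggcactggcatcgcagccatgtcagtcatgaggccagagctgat

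A further pseudogene, Atp6v0c-ps1, matches 97.6% of its aligned bases. Of all stretches of 50 bases in the longest protein-coding Atp6v0c transcript 32.5% also occur in GENCODE transcripts of these pseudogenes, the largest share among the 10 subunits, where the next were 2.86% for Atp6ap2 and 2.42% for Atp6v0b. The GENCODE entry of Atp6v0c-ps2 holds 465 bases while its RefSeq entry spans 1133, so the share may be larger in the genome, which was not used here. The read length is not given in the sources used here. Whether unplaced reads account for the 0 counts was not tested, and the level of this subunit is unknown here.

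**Figure D2:**
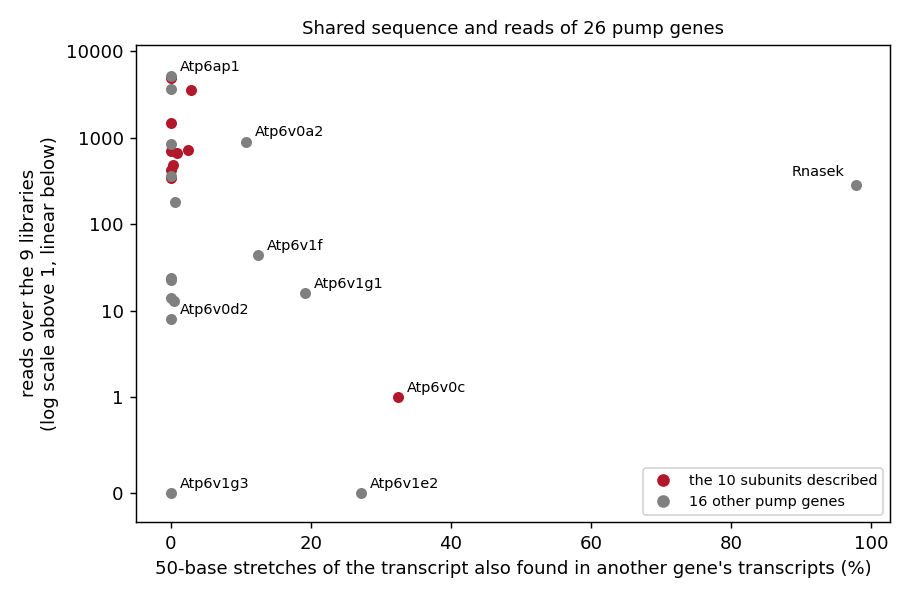
Reads over the 9 libraries (log scale above 1) against the percentage of 50-base stretches that each transcript shares with transcripts of other genes, for the 10 subunits described and 16 other pump genes. Atp6v0c sits at 32.5% and 1 read, and the other 9 subunits sit under 3% with 340 to 4914 reads.

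Among the V1 subunits Atp6v1c1 (chr15:38661904-38692444) encodes subunit C, which joins V1 to V0 at the outer stalk and leaves both when the pump comes apart. It stood at 76.9, 62.8, 96.0, 68.0 and 77.5 CPM in Tau-P301L libraries 1 to 5 and at 49.96, 44.3, 42.8 and 53.7 CPM in wild-type libraries 1 to 4. The lowest Tau-P301L value exceeded the highest wild-type value, and the groups were apart in this way in either direction for 1 of the 9 tested subunits and for 2.48% of all tested genes. The means were 76.2 ± 12.6 CPM over 5 Tau-P301L libraries and 47.7 ± 5.04 CPM over 4 wild-type ones (mean ± SD), a log2 fold change of 0.66 (SE 0.27, 95% interval 0.10 to 1.21, unadjusted p = 0.0227, edgeR adjusted p = 0.748). The estimate was 0.56 in females alone and 0.74 in males alone, 0.54 without Tau-P301L libraries 3 and 5 and 0.71 without Tau-P301L library 4, with adjusted p of 0.99, 0.895, 0.992 and 0.442. Astrocyte markers summed to 311, 322, 598, 530 and 675 CPM in Tau-P301L libraries 1 to 5 and to 314 to 420 CPM in wild-type libraries, and oligodendrocyte markers to 332 to 1460 CPM in Tau-P301L and 519 to 715 CPM in wild-type libraries. The part of these or other cell types in the Atp6v1c1 values was not tested.

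Atp6v1a (chr16:44085402-44139702) encodes subunit A, which splits ATP. It stood at 39.7, 37.8, 23.3, 26.5 and 15.4 CPM in Tau-P301L libraries 1 to 5 and at 26.1, 34.8, 23.0 and 17.7 CPM in wild-type libraries 1 to 4. The genotypes overlapped throughout, with a log2 fold change of 0.22 (SE 0.34, edgeR adjusted p = 0.93). The highest values in each group came from females. Males averaged 21.2 ± 4.53 CPM (SD, n = 5) and females 34.6 ± 6.05 CPM (SD, n = 4), a log2 fold change of males over females of -0.71 (SE 0.34, unadjusted p = 0.0457, edgeR adjusted p = 1), and the sexes overlapped by wild-type library 1, a female, which lay below the male Tau-P301L library 4.

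Atp6v1b2 (chr8:69088736-69113718) encodes the B subunit that alternates with A in the V1 head. It stood at 23.2, 21.1, 54.7, 29.1 and 31.4 CPM in Tau-P301L libraries 1 to 5 and at 34.3, 23.5, 25.6 and 27.7 CPM in wild-type libraries 1 to 4. Tau-P301L library 3 was far above the others and the remaining libraries were mixed. The estimate on the log2 scale was 0.11 (SE 0.36, edgeR adjusted p = 0.967), and without Tau-P301L library 3 it was -0.10.

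Atp6v1d (chr12:78842982-78862008), whose product forms the rotating shaft, ranged from 8.12 to 25.8 CPM across Tau-P301L and from 16.03 to 29.7 CPM across wild-type libraries, with a log2 fold change of -0.30 (SE 0.41, edgeR adjusted p = 0.917). Atp6v1h (chr1:5082978-5163213), whose product holds back ATP splitting in free V1, ranged from 10.3 to 21.6 CPM across Tau-P301L and from 16.03 to 19.9 CPM across wild-type libraries. Its means were 17.6 ± 4.27 CPM over 5 Tau-P301L libraries and 17.6 ± 1.89 CPM over 4 wild-type ones (mean ± SD), and its log2 fold change of -0.02 had a 95% interval of -0.82 to 0.79.

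Atp6ap2 (chrX:12587759-12617051) encodes an accessory membrane protein of the pump, also known as the prorenin receptor. It stood at 169, 58.2, 281, 85.1 and 151 CPM in Tau-P301L libraries 1 to 5 and at 181, 127, 149 and 130 CPM in wild-type libraries 1 to 4. The Tau-P301L libraries held both the highest value, in library 3, and the lowest, in library 2, and the wild-type libraries lay between them. The means were 149 ± 86.7 CPM over 5 Tau-P301L libraries and 147 ± 25.1 CPM over 4 wild-type ones (mean ± SD), with a log2 fold change of -0.04 (SE 0.34, edgeR adjusted p = 0.988). The gene is on X, and its log2 fold change of males over females was 0.26 (SE 0.35, edgeR adjusted p = 1).

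**Figure D3:**
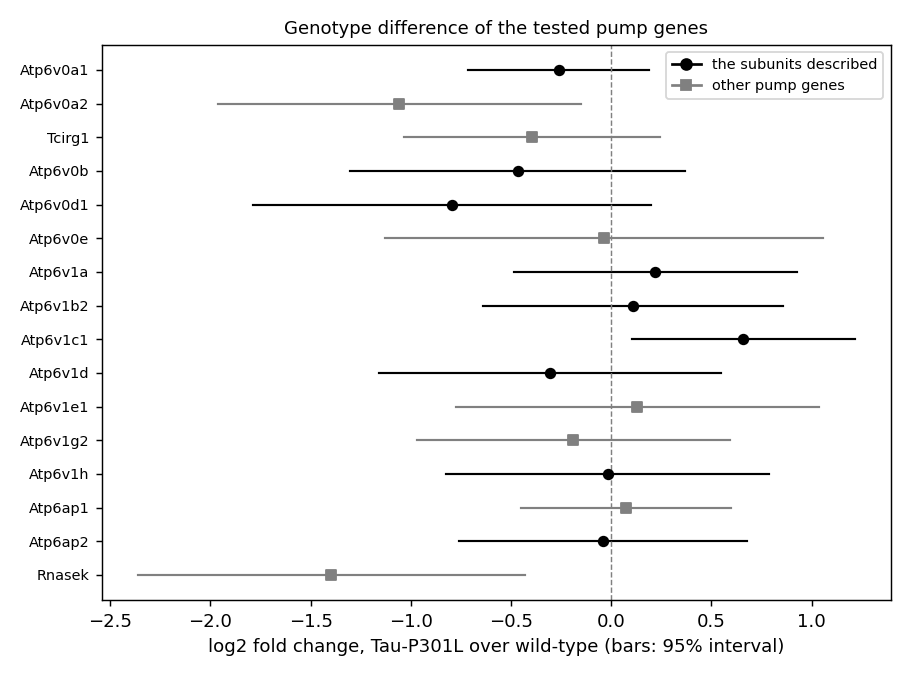
Log2 fold change of Tau-P301L over wild-type with its 95% interval for the 9 tested subunits (black circles) and 7 other tested pump genes (grey squares). The intervals of Atp6v1c1, Atp6v0a2 and Rnasek leave out 0, and none of the 16 genes passed adjustment over all genes.

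Between the sexes no subunit passed over all genes in edgeR, where 0.0490% of all genes did, and 1 of 9, Atp6v1a, had an unadjusted p under 0.05, against 2.43% of all genes. The interaction of genotype and sex was called for 0 of 13302 genes by edgeR, and at an unadjusted p under 0.05 for 3.95% of them and for 0 of the 9 subunits. Its smallest p among the subunits was that of Atp6v0b, with a log2 value of -1.46 (SE 0.77, unadjusted p = 0.0716, edgeR adjusted p = 1). In that gene the log2 fold change of Tau-P301L over wild-type was 0.33 in females alone and -1.13 in males alone. The female value includes wild-type library 2, at 16.7 CPM, and with 1 library left out the interaction value ranged from -2.19 without wild-type library 1 to -0.98 without wild-type library 2.

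The deposited RPKM values divide reads by gene length and so allow levels of different genes to be set side by side. Averaged over the 9 libraries, the order was Atp6ap2 at 15.2, Atp6v0a1 at 9.62, Atp6v1c1 at 7.28, Atp6v0b at 6.26, Atp6v1d at 3.42, Atp6v1b2 at 2.67, Atp6v0d1 at 2.07, Atp6v1h at 1.51 and Atp6v1a at 1.5 RPKM. Counted reads put Atp6v0c last, at 0 to 0.0741 RPKM in Tau-P301L and 0 in each wild-type library. Its level is unknown here, as stated above, so it is left out of the order. The gene length implied by the Atp6v1d RPKM is about 1572 bases, against 3667 in its longest protein-coding transcript, so its place is uncertain. Most neighbours in this order overlapped in their library values. In wild-type libraries Atp6ap2 (12.96 to 18.3 RPKM) lay above Atp6v0a1 (9.94 to 11.2) without overlap, and so did Atp6v0a1 above Atp6v1c1 (4.95 to 6.03). Atp6v0d1 (2.03 to 3.47) likewise lay above Atp6v1h (1.35 to 1.72), and no other step was free of overlap. In Tau-P301L libraries all neighbours in the order overlapped, and Atp6v1c1, at 7.06 to 11.3 RPKM, reached the range of Atp6v0a1, at 7.04 to 10.3 RPKM.

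Several subunits exist as isoforms from separate genes. For the a subunit, Tcirg1, the isoform known from osteoclasts and lysosomes, stood at 9.54 ± 4.5 RPKM in Tau-P301L (SD, n = 5) and 12.5 ± 2.65 RPKM in wild-type libraries (SD, n = 4). Beside it, Atp6v0a1 stood at 8.91 ± 1.29 RPKM in Tau-P301L and 10.5 ± 0.642 RPKM in wild-type libraries. Atp6v0a2, also an a isoform, stood at 5.05 ± 3.87 RPKM in Tau-P301L and 10.5 ± 2.57 RPKM in wild-type libraries. The gene length implied by the Atp6v0a2 RPKM is about 1293 bases, against 5345 in its longest protein-coding transcript, so its level per length is uncertain. Atp6v0a4, known from kidney, had 0 to 2 reads in Tau-P301L and 0 to 5 reads in wild-type libraries. Atp6v0d2, the d isoform of osteoclasts and some macrophages, had 1 read in Tau-P301L library 1, 7 in library 2 and 0 in the other 7 libraries, and was not tested. Atp6v1b1, the kidney and inner ear form of B, had 0 to 9 reads in Tau-P301L and 0 to 2 in wild-type libraries. For the G subunit of the outer stalk, Atp6v1g2, known mainly from neurons, stood at 5.19 ± 2.5 RPKM in Tau-P301L (SD, n = 5) and 5.67 ± 1.55 RPKM in wild-type libraries (SD, n = 4), while the widespread form Atp6v1g1 stood at 0.169 ± 0.188 RPKM in Tau-P301L and 0.113 ± 0.0572 RPKM in wild-type libraries, on 0 to 7 reads a library. Of the 50-base stretches of Atp6v1g1 19.2% occur in other genes' transcripts, and Atp6v1g2 shares 5.74% of its exon bases with Nfkbil1, so this order of the G isoforms is uncertain.

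**Figure D4:**
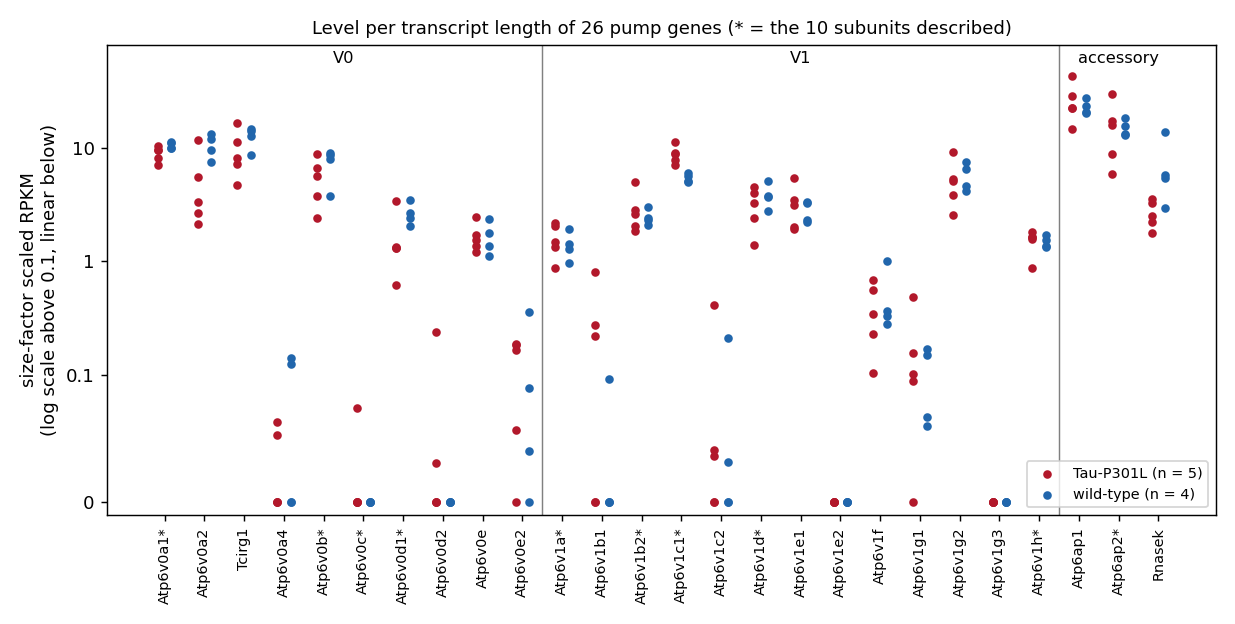
Size-factor scaled RPKM (log scale above 0.1) of 26 pump genes in Tau-P301L libraries (left of each pair, n = 5) and wild-type libraries (right, n = 4), ordered by V0, V1 and accessory genes. Atp6ap1 and Atp6ap2 have the highest means, with single Atp6ap2 libraries down to 5.87 RPKM, and Atp6v0c lies at 0 in 8 of 9 libraries.

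Of the 16 other pump genes 7 were tested, with 2 higher and 5 lower estimates, a median log2 fold change of -0.19 and 0 past the threshold in edgeR, 2 of them with an unadjusted p under 0.05, a level reached by 6.35% of all tested genes. Rnasek, which encodes a small V0-associated protein, stood at 6.74 ± 1.76 CPM over 5 Tau-P301L libraries and 17.8 ± 11.8 CPM over 4 wild-type ones (mean ± SD; log2 fold change -1.40, SE 0.46, edgeR adjusted p = 0.665). Of its 50-base stretches 97.9% lie also in the overlapping gene Gm21988, so its reads are uncertain. Atp6v0a2, the a isoform of endosomes and the Golgi, stood at 24.1 ± 18.5 CPM over the Tau-P301L libraries and 50.3 ± 11.8 CPM over the wild-type ones (SD, n = 5 and 4; log2 fold change -1.06, SE 0.43, edgeR adjusted p = 0.758). Tcirg1 had a value of -0.39 on that scale (SE 0.31), and Atp6ap1, the most abundant pump gene per length and partner of Atp6ap2, had one of 0.07 (SE 0.25), which was -0.09 without Tau-P301L library 3.

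The genes around the pump gave the same count of 0 past the threshold in edgeR. Of 9 assembly factors and regulators 7 had higher and 2 lower estimates (median 0.07). Of the 9, 1 had an unadjusted p under 0.05, against 6.35% of all tested genes. It was Rogdi, a part of the complex that rejoins V1 and V0 (-0.86, SE 0.39, edgeR adjusted p = 0.776). Vma21, a chaperone of V0 assembly, had an estimate of 1.34 (SE 0.80) and Dmxl1, another part of the rejoining complex, one of 0.37 (SE 0.23). The Vma21 estimate rests on 10 to 30 reads in Tau-P301L and 0 to 18 reads in wild-type libraries. All 3 tested factors of the TFEB family had lower estimates, with Tfeb itself at 9.56 ± 4.18 CPM over 5 Tau-P301L libraries and 16.8 ± 9.51 CPM over 4 wild-type ones (mean ± SD; log2 fold change -0.79, SE 0.49, edgeR adjusted p = 0.798), Tfe3 at -0.28 (SE 0.29) and Mitf at -0.02 (SE 0.31), which ranged from -0.18 to 0.16 with 1 library left out. Without wild-type library 3, the highest, the Tfeb estimate was -0.33. Of 8 tested genes of the amino-acid sensing machinery that docks on the pump 4 had higher and 4 lower estimates (median 0.22), led by Rragd, a Rag GTPase (1.63, SE 0.79, unadjusted p = 0.0528), Rptor, a subunit of mTORC1 (-0.52, SE 0.28), and Rraga (0.88, SE 0.73). The Rragd estimate rests on 9 to 19 reads in Tau-P301L and 1 to 13 reads in wild-type libraries. Rraga stood at 318 CPM in Tau-P301L library 3 and at 27.8 to 75.3 CPM in the other 4 Tau-P301L libraries, against 29.8 to 62.3 CPM in wild-type libraries, and without Tau-P301L library 3 its estimate was -0.17. Of 11 other lysosomal ion channels and exchangers 7 had higher and 4 lower estimates (median 0.05). Of the 11, 1 had an unadjusted p under 0.05, against 6.35% of all tested genes. It was Tpcn1, an endolysosomal cation channel, at 82.2 ± 33.9 CPM over the Tau-P301L libraries and 148 ± 61.6 CPM over the wild-type ones (SD, n = 5 and 4). The Tpcn1 estimate was -0.84 (SE 0.32, edgeR adjusted p = 0.733). With 1 library left out it ranged from -1.08 to -0.47, the latter without wild-type library 3, the highest at 229 CPM. Next came Ostm1, partner of the chloride exchanger Clcn7 (0.67, SE 0.38), and Clcn3 (0.55, SE 0.42), which was 0.27 without wild-type library 3.

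Summed over the 10 genes, pump reads came to 550.2, 444.5, 677, 483 and 549 CPM in Tau-P301L libraries 1 to 5 and 631, 503, 560.5 and 539 CPM in wild-type libraries 1 to 4, with means of 541 ± 88.6 CPM over 5 Tau-P301L libraries and 558 ± 54.1 CPM over 4 wild-type ones (mean ± SD). The groups overlapped. The V0 genes summed to 220 ± 26.8 CPM over the Tau-P301L libraries and 271 ± 21.1 CPM over the wild-type ones, and the V1 genes to 172 ± 26.1 CPM over the Tau-P301L libraries and 141 ± 12.0 CPM over the wild-type ones (SD, n = 5 and 4). Both sums overlapped between the groups, and since they add CPM without regard to length they weigh Atp6v0a1 and Atp6v1c1 most. The V0 sum takes Atp6v0c at its counted reads, although its level is unknown here.

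Over the 9 libraries the 36 pairs of tested subunits had a median Pearson correlation of log2 CPM of -0.07, with a range from -0.75 for Atp6v0a1 and Atp6v1c1 (Spearman -0.75, and Pearson -0.49 once each genotype's mean was removed) to 0.73 for Atp6v1b2 and Atp6ap2 (Spearman 0.63, and Pearson 0.77 within genotypes). Within genotypes the highest values were 0.84 for Atp6v1c1 and Atp6ap2 and 0.81 for Atp6v1b2 and Atp6v1c1. The pooled Pearson values of these pairs were 0.27 and 0.52, and the pooled Spearman value was 0.35 for both. For Atp6v1c1, Atp6v1b2 and Atp6ap2 the highest of the 9 libraries was Tau-P301L library 3, at 96.0, 54.7 and 281 CPM. How far the correlations rest on that library was not tested. All these correlations are descriptions, since libraries share depth and quality with all genes. The genes most like the mean of the standardised subunits over the 9 libraries were Tspan7, 1110019D14Rik, Ppp3ca, Nme1 and Siglech, with Pearson correlations of 0.923, 0.903, 0.898, 0.893 and 0.888.

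RefSeq promoters (GRCm38.p6, 250 bases before to 50 after a transcript start) were found for 7 of the 10 subunits, and Atp6v1b2, Atp6v1c1 and Atp6v1h had none in the table. The letters CACGTG, the core of the CLEAR element and the same on both strands, stood in 3 of these 7, Atp6v0b, Atp6v0d1 and Atp6v1a, against 8.09% of all 27025 genes with a promoter in the table. The longer TCACGTGA, which contains that core, stood in 2 of 7, Atp6v0d1 and Atp6v1a, against 1.12% of genes, and the same letters with a G before and a C after in 0 of 7, against 0.37%. Of 12 other pump genes with a RefSeq promoter, 1 (Atp6v0e) held CACGTG, and it held TCACGTGA as well. The stretches around these matches are shown since they hold the letters known from lysosomal gene promoters, with the match in capitals and each read on the minus strand, the strand of its gene.
Atp6v0b: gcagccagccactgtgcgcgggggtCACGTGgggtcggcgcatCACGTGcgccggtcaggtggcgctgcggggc
Atp6v0d1: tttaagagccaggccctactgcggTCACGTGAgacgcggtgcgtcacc
Atp6v1a: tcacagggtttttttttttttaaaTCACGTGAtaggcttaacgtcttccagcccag

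These lie at chr4:117887317-117887390, chr8:105566045-105566092 and chr16:44139360-44139415. The core begins 36 and 18 bases before the transcript start in Atp6v0b, 3 bases before it in Atp6v0d1 and 131 bases before a transcript start in Atp6v1a. Atp6v1a is read on the minus strand and its span begins at 44139702. The Atp6v1a window thus lies inside the gene, before a start further in, and not upstream of the whole gene. GENCODE exons cover 17 bases of the Atp6v0b window, 3 of the Atp6v0d1 window and 0 of the Atp6v1a window. The log2 fold changes of the 3 genes were -0.47, -0.79 and 0.22, and a match of letters is no evidence of binding in these cells.

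**Figure D5:**
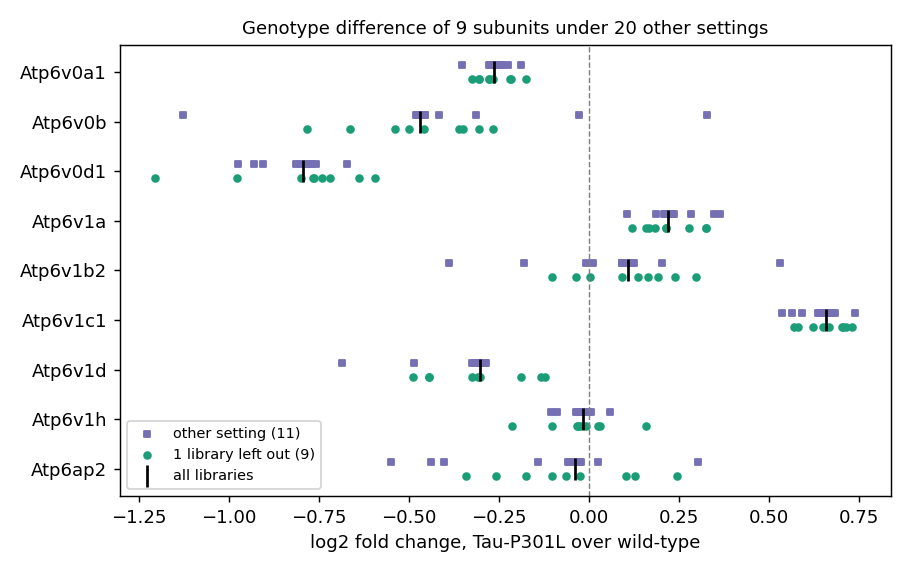
Log2 fold change of Tau-P301L over wild-type for 9 subunits with all libraries (bars), with 1 library left out (circles, 9 fits) and under 11 other settings (squares). Atp6v1c1 stays between 0.54 and 0.74, and Atp6v0b, Atp6v1b2, Atp6v1h and Atp6ap2 fall on both sides of 0.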

How the data were processed

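Sorted Cd11b+ brain myeloid cells gave 9 RNA-seq libraries, 1 file each. Reads were aligned with GSNAP to GRCm38, per the submitters' processing notes, and versions, annotation and filters were not given in those notes or labels. The authors deposited whole-number counts of reads that aligned uniquely to a gene model, per the file headers. The deposited RPKM values carry, per the file headers, a size factor of the authors for each library, and equal the counts times a gene constant and a library factor within a relative deviation of 1.8e-14.

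Entrez numbers were named from a RefSeq table of GRCm38.p6 (31049 of 36528 matched). Counts were tested with edgeR 4.0.16 in R 4.3.3, with TMM scaling, the default low-count filter (minimum 10), genotype and sex in 1 model, robust dispersions and Benjamini-Hochberg adjustment over all genes at 0.05. Standard errors derive from the F statistic. DESeq2 1.42.0, limma 3.58.1 and 19 other settings were alternatives. RPKM served only for levels between genes, and depth gives the limit of 3 reads, which covers counting error only. Correlations used log2 CPM with a prior count of 2.

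Shared stretches of 50 bases, on both strands, and exon overlaps used GENCODE M21. Fits were tested on simulated data. Every pair of libraries differed by more than counting noise (lowest chi-square divided by its degrees of freedom, 10.18). Subunits, lists and settings were chosen with earlier results of these data known. The named genes are all 10 subunits, the 3 of smallest p in each list around the pump, Atp6v0d2, Tcirg1, Atp6ap1 and Tfeb, the 5 most similar genes and the top 2 of marker lists. Isoforms at low reads were named after their values were seen. Protein sequences were not used here.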

Additional observations from a re-analysis of the deposited data

Results flagged for a closer look

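In 18 groups examined (9 subunits in each genotype), 2 had a library far from the others of its group, where chance alone flags about 1 in 20. Atp6v0b stood at 16.7 CPM in wild-type library 2, a gap of 0.862 of the group's range below the next, 36.3 CPM. Atp6v0d1 stood at 22.3 CPM in Tau-P301L library 5, the shallowest library, a gap of 0.73 of the group's range above the next, 8.98 CPM, on 32 reads. That library also had the highest sums of oligodendrocyte markers (1460 CPM) and astrocyte markers (675 CPM). The part of depth or of other cells in this value was not tested.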

How the results depend on the processing

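No subunit passed in any of the 20 alternatives, whose smallest adjusted p was 0.411 (Atp6v1c1 with DESeq2), and Atp6v0a1, Atp6v0d1, Atp6v1a, Atp6v1c1 and Atp6v1d kept their sign in all of them. The median log2 fold change of the subunits was -0.24 with limma-voom, -0.29 in females alone and -0.22 to 0.16 with 1 library left out. Signs turned for Atp6v1b2 with limma-voom (-0.0087), in females alone (-0.39) and without Tau-P301L libraries 3 and 5 (-0.18), for Atp6v1h and Atp6ap2 without the sex term (0.007 and 0.025) and in males alone (0.0581 and 0.30), and for Atp6v0b in females alone (0.33). With 1 library left out the ranges were -0.10 to 0.30 for Atp6v1b2, -0.21 to 0.16 for Atp6v1h, -0.34 to 0.24 for Atp6ap2, and -0.0597 to 0.52 for the sex difference of Atp6ap2. Over all genes, the genotype count of 1 became 26 without a low-count filter, 27 with DESeq2, 0 in females alone, in males alone and without Tau-P301L libraries 3 and 5, and 0 to 1 with 1 library left out. The sex count of 6 became 16 and the interaction count of 0 became 22 without a filter, and the interaction count was 0 to 4 with 1 library left out. The count of subunits whose groups do not overlap was 1 to 2 with 1 library left out: Atp6v0a1 joined without Tau-P301L library 4 and Atp6v0d1 without Tau-P301L library 5. In both, the library left out was the only Tau-P301L library that lay among the wild-type ones, so the change follows from that choice. The share of all genes with groups apart when 1 library is left out is not given here. Of 16 named genes of the lists around the pump, Atp6ap1, Mitf and Rraga changed sign with 1 library left out. The causes were not tested. No paired analysis was possible because the labels give no replicate numbers that link the groups.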

Other observations

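After its values were seen, Atp6v1c1 was also set against every tested gene over the 9 libraries. The most similar in log2 CPM were Dpy19l4 (Pearson 0.979), Plekha1 (0.977), Rfk (0.973), which makes flavin mononucleotide and was the gene called for genotype, and the chemokine gene Ccl4 (0.947). Once each genotype's mean was removed the values were 0.96, 0.893, 0.875 and 0.835. For Rfk the Spearman correlation was 1, so both genes put the 9 libraries in the same order. These are the highest of 12249 correlations and carry no test.

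The V1 to V0 ratio of summed CPM, also chosen after the values were seen, was 0.937, 0.61, 1.13, 0.612 and 0.738 in Tau-P301L libraries and 0.544, 0.557, 0.477 and 0.503 in wild-type libraries, and the groups did not overlap. Without Atp6v1c1 it was 0.336 to 0.614 in Tau-P301L and 0.305 to 0.374 in wild-type libraries, and they did. Both ratios use CPM without regard to length and take Atp6v0c at its counted reads, although its level is unknown here. They also leave out the a isoforms Tcirg1 and Atp6v0a2.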
